A study of Mus musculus with 10 samples.

Results

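The transcripts of 7 chromatin loop genes were followed in retinal ganglion cells with and without Satb1: Ctcf, the cohesin subunit genes Smc1a, Smc3, Rad21, Stag1 and Stag2, and the cohesin loader gene Nipbl. They were taken by symbol from a table of 23258 gene symbols as a list chosen with earlier results of these data known. All 7 were present and passed the filter on low values (at least 1 TPM in at least 5 of the 10 libraries). CTCF is a zinc finger protein that binds DNA at a long, oriented motif. Cohesin is a ring of SMC1A, SMC3 and RAD21 with STAG1 or STAG2 bound to it. NIPBL stimulates the ring to reel in DNA, and loops often end where the ring meets CTCF. In neurons, which no longer divide, cohesin and CTCF are known for shaping the contacts between enhancers and promoters, as in the clustered protocadherin genes, and SATB1 is itself a DNA-binding organizer of chromatin.

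Ganglion cells were sorted by green fluorescence from retinae of C57BL/6 mice at postnatal day 6, about 1000 cells per sample. Both groups carried the Hb9-GFP reporter, which is known for labelling a subset of ON-OFF direction-selective ganglion cells. One group of 5 libraries was wild-type for Satb1 and the other 5 were Satb1-/-, with each replicate of a genotype from another litter. Which part of Satb1 the mutation removes, and in which cells, is not given in the sources used here. All levels are in TPM, a transcript abundance relative to the library total, scaled for transcript length, that can be compared between genes but keeps no record of depth. Differences between genotypes are knockout minus wild-type means of log2(TPM + 1), a scale that understates changes of low transcripts. Since these are bulk samples, a lower level can reflect fewer cells with the transcript or less of it per cell, and these cannot be told apart.

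The libraries differed widely within each genotype, and the part of genotype in these differences was not tested. Wild-type 5, knockout 4 and knockout 5 lay apart from the other 7 on the first principal component, and the share of TPM in genes of ribosomal proteins was 12.8% to 14.2% there, against 4.01% to 8.20% elsewhere. Wild-type 4 lay apart on the second. All 10 ganglion cell markers checked were at 1 TPM or more in every library, and their sum was 101377 TPM in knockout 3 and 12845 to 30678.5 TPM in the other 9. Satb1 itself was between 38.6 and 414 TPM among wild-type libraries and between 24.1 and 170 TPM among knockout ones, so the ranges overlapped and its level checks the genotype only weakly. Depth is unknown for all libraries.

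The stretch of DNA just before the start of 3 of these genes is shown so that the promoters can be compared. The transcripts were low largely in the same libraries, as was the median of all tested genes. RefSeq windows on GRCm38.p6 were at hand for 4 of the 7 genes, Ctcf, Smc1a, Smc3 and Stag1. Each sequence is the 150 bases before the RefSeq start on the plus strand, 5′ to 3′, with each occurrence of the GC box GGGCGG or its reverse complement in capitals. They lie at chr8:105636388-105636537, chrX:152016278-152016427 and chr19:53600246-53600395.
Ctcf: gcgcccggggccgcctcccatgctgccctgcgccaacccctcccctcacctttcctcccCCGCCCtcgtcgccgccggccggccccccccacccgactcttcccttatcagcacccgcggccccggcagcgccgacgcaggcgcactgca
Smc1a: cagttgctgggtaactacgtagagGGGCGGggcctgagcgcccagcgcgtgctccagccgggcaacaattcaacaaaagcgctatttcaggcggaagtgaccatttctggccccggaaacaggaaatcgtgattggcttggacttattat
Smc3: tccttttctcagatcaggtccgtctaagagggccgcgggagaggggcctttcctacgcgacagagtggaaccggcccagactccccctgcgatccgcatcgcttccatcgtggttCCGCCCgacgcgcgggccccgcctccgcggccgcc

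Over the full 250 bases before the start, G and C made up 77.6% of the Ctcf window, 71.2% of Stag1, 64.4% of Smc3 and 56.8% of Smc1a, against a median of 52.4% over 32851 windows of all genes. The Stag1 window, with its last 150 bases at chr9:100643298-100643447, precedes a RefSeq start inside the annotated gene. That gene spans 100597798 to 100959375, so the window is not at its outermost start. CpG dinucleotides numbered 40 in Ctcf, 31 in Stag1, 26 in Smc3 and 16 in Smc1a, where the median window had 6. The GC box GGGCGG, searched on both strands, occurred in 4 of the 4 windows and in 32.7% of all windows. CCAAT occurred in 2 of 4, Smc1a and Stag1, and in 33.8% of all. The ETS letters CCGGAAG (6.91% of all windows), the NRF1 letters GCGCATGCG (1.45%), the YY1 letters AAGATGGCG (0.606%) and the CTCF core letters AGGGGGCGC (1.11%) were found in 0 of the 4, on either strand, and none of these runs of letters contains another. All 4 windows were above the median in GC and in CpG. A match to such letters is a description and not a bound site.

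All 7 transcripts were detected in every library, between 2.29 and 126 TPM, and none was listed at 0. They were mid-range transcripts of these cells. Ranked by mean TPM among the 11744 genes tested, Smc1a stood at percentile 77.4, Rad21 at 69.2, Nipbl at 67.7, Smc3 at 66.3, Ctcf at 59.9, Stag1 at 45.5 and Stag2 at 39.8. Over the 10 libraries the means were 55.8 TPM for Smc1a, 39.1 for Rad21, 36.9 for Nipbl, 35.2 for Smc3, 28.3 for Ctcf, 17.7 for Stag1 and 14.7 for Stag2. No step between neighbours in this order exceeded its SD over libraries. Within a library, Rad21 was above Nipbl in 5 of 10, Nipbl above Smc3 in 6, Smc3 above Ctcf in 6 and Stag1 above Stag2 in 6. The clearer steps were from Smc1a to Rad21, by 0.62 ± 0.84 on the log2 scale (SD over 10 libraries) and with Smc1a higher in 8, and from Ctcf to Stag1, by 0.77 ± 0.92 and with Ctcf higher in 9. The lowest of the 7 was Stag2 in 6 libraries and Stag1 in 4.

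**Figure D1:**
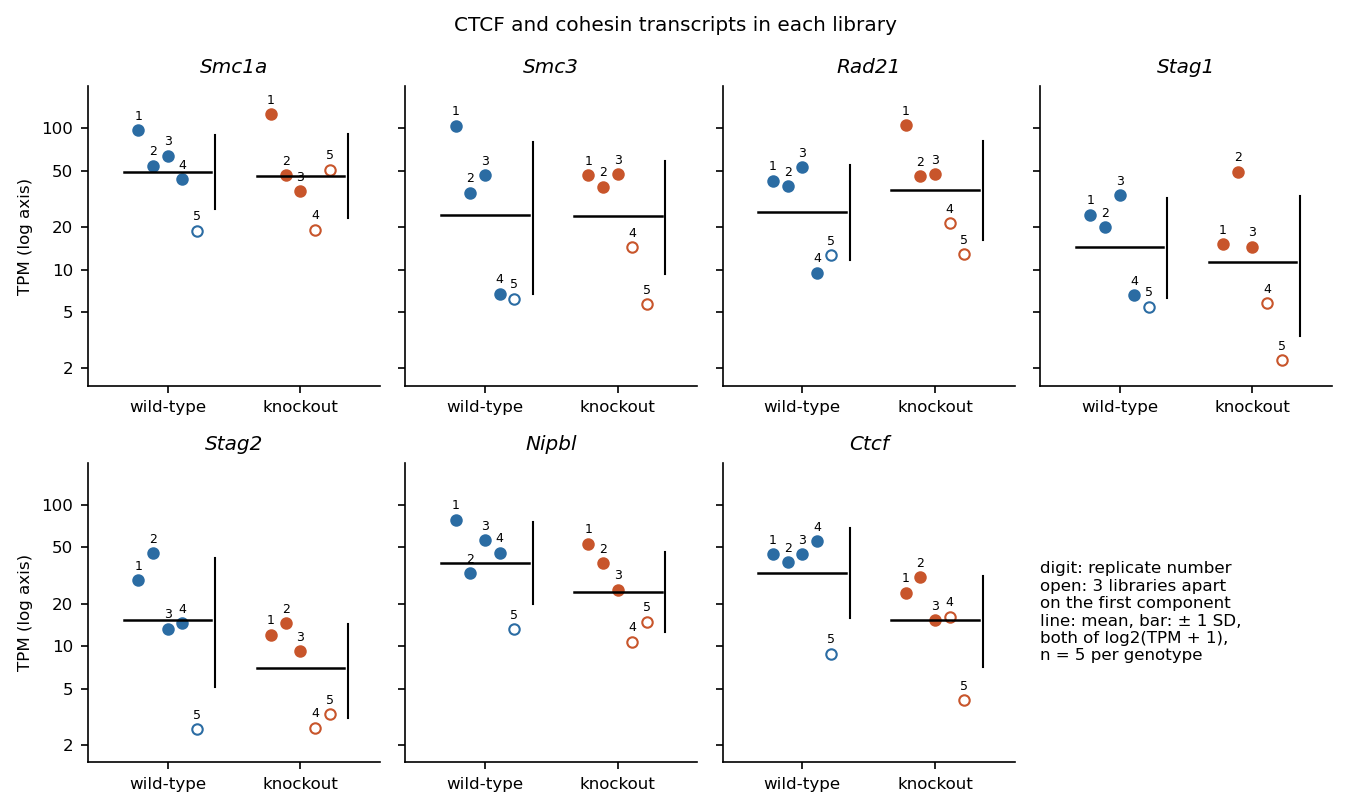
Level of each of the 7 transcripts in each library, in TPM on a log axis, wild-type in blue and knockout in orange, with the replicate number beside each point, open circles for the 3 libraries apart on the first component, and lines and bars for mean ± 1 SD of log2(TPM + 1), n = 5 per genotype. The open circles are at or near the bottom of most panels, and for Ctcf all 5 knockout libraries are below wild-type 1 to 4 but above or below wild-type 5.

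Ctcf encodes the DNA-binding partner of cohesin at loop ends. Ctcf (ENSMUSG00000005698.15, chromosome 8, 105636568 to 105682922, plus strand, mm10) measured 44.7, 39.2, 44.9, 55.4 and 8.84 TPM across the wild-type libraries, replicates 1 to 5, against 23.8, 30.7, 15.3, 16.1 and 4.13 TPM across the knockout ones. All knockout libraries were below wild-type 1 to 4, while wild-type 5 was below 4 of the 5 knockout libraries, so the groups overlapped. The means were 38.6 ± 17.7 and 18 ± 9.98 TPM (SD, n = 5 each). On the log2 scale the difference was -1.08 (SE 0.72, 95% interval -2.59 to 0.44), a fold of 0.474 with an interval of 0.166 to 1.35. Its size was slightly above the SD between replicates of each genotype on that scale, 1.02 in wild-type and 1.01 in knockout. The interval spanned both a lower and a higher level in knockout. The two-sided exact permutation p was 0.135. The adjusted limma p was 0.992 (Benjamini-Hochberg over all genes).

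Without wild-type 5, 1 of the 7 had groups that did not overlap, Ctcf, with all knockout libraries lower. That pattern was shared by 2.57% of all genes tested without that library, a share that leaves out genes with all knockout libraries higher. The Ctcf difference was then -1.53, and it was -0.66 without knockout 5. Over the 7 libraries that did not lie apart it was -0.998, with an SD of 0.20 among 4 wild-type and 0.49 among 3 knockout libraries and a limma adjusted p of 0.987. After each library was centred on its median it was -0.70. The feeding neuropeptide gene Agrp (105566698 to 105637393) overlaps the start of Ctcf on the opposite strand, and the use of strand in counting is not given in the sources used here. Agrp was at 132 TPM in knockout 4 and at 0 to 1.64 TPM in the other 9 libraries.

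Of the ring's coiled-coil ATPase subunits, Smc1a had the same mean in both genotypes. Smc1a (ENSMUSG00000041133.11, chromosome X, 152016428 to 152062694, plus strand) measured 97.5, 54.5, 64.4, 43.8 and 18.9 TPM across the wild-type libraries, replicates 1 to 5, against 126, 46.5, 36.1, 19.1 and 51.1 TPM across the knockout ones. Both genotypes had their highest value in replicate 1, and the means were 55.8 ± 28.8 and 55.8 ± 41.3 TPM (SD, n = 5 each). The log2 difference of -0.09 (SE 0.65, 95% interval -1.45 to 1.28) had an interval that passed 2-fold in both directions (two-sided exact permutation p = 0.873).

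Its partner Smc3, whose protein joins SMC1A at the hinge of the ring, spread more widely. Smc3 (ENSMUSG00000024974.10, chromosome 19, 53600398 to 53645833, plus strand) measured 105, 35.0, 46.7, 6.77 and 6.21 TPM across the wild-type libraries, replicates 1 to 5, against 46.7, 38.7, 47.5, 14.4 and 5.67 TPM across the knockout ones. Wild-type 4 and 5 and knockout 5 were the low libraries, and the groups overlapped over most of their range. The log2 difference was -0.02 (SE 0.84, 95% interval -1.78 to 1.74; two-sided exact permutation p = 0.968).

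Rad21 encodes the kleisin that links the heads of the SMC pair and is cut when chromatids part. Rad21 (ENSMUSG00000022314.10, chromosome 15, 51962240 to 51991747, minus strand) measured 42.6, 39.0, 53.3, 9.49 and 12.7 TPM across the wild-type libraries, replicates 1 to 5, against 106, 46.0, 47.6, 21.4 and 12.8 TPM across the knockout ones. The means were 46.7 ± 36.3 TPM in knockout and 31.4 ± 19.3 TPM in wild-type (SD, n = 5 each), and knockout 1 was the highest library. The log2 difference, the one above 0 among the 7, was 0.49 (SE 0.73, 95% interval -1.02 to 2.01; two-sided exact permutation p = 0.460). It was 0.12 without knockout 1, 0.16 without wild-type 4, 0.25 without wild-type 5, 0.75 without wild-type 3 and 0.86 without knockout 5.

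The paralogs STAG1 and STAG2 take the same place on the ring, 1 per complex. Stag1 (ENSMUSG00000037286.15, chromosome 9, 100597798 to 100959375, plus strand) measured 24.5, 20.003, 33.5, 6.56 and 5.46 TPM across the wild-type libraries, replicates 1 to 5, against 15.1, 49.4, 14.6, 5.77 and 2.29 TPM across the knockout ones. Knockout 2 was above all other libraries, and the log2 difference was -0.34 (SE 0.83, 95% interval -2.07 to 1.39; two-sided exact permutation p = 0.690).

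Stag2 (ENSMUSG00000025862.14, chromosome X, 42149317 to 42277185, plus strand) measured 29.3, 45.7, 13.3, 14.6 and 2.58 TPM across the wild-type libraries, replicates 1 to 5, against 12, 14.6, 9.19, 2.64 and 3.28 TPM across the knockout ones. Wild-type 1 and 2 stood above every knockout library, wild-type 4 was level with the highest knockout library at 14.6 TPM, wild-type 3 lay within the knockout range, and wild-type 5 was the lowest of all. The means were 21.1 ± 16.7 and 8.34 ± 5.27 TPM (SD, n = 5 each). The log2 difference was -1.03 (SE 0.82, 95% interval -2.73 to 0.68), a fold of 0.491 with an interval of 0.151 to 1.6 (two-sided exact permutation p = 0.206). It was -1.57 without wild-type 5 and -0.65 without wild-type 2.

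Stag2 made up 54.5%, 69.5%, 28.4%, 69.0% and 32.1% of the summed Stag1 and Stag2 TPM across wild-type replicates. Across knockout replicates its share was 44.3%, 22.8%, 38.7%, 31.4% and 58.9%. Neither paralog was the major one throughout a genotype: Stag2 led in 3 wild-type libraries and in 1 knockout library.

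Nipbl encodes the large loader subunit, and loss of 1 copy of its human counterpart causes Cornelia de Lange syndrome. Nipbl (ENSMUSG00000022141.7, chromosome 15, 8290617 to 8444463, minus strand) measured 78.5, 32.7, 56.1, 46.1 and 13.2 TPM across the wild-type libraries, replicates 1 to 5, against 53.1, 38.8, 25.1, 10.8 and 14.9 TPM across the knockout ones. The means were 45.3 ± 24.5 and 28.5 ± 17.5 TPM (SD, n = 5 each), and the groups overlapped. The log2 difference was -0.66 (SE 0.68, 95% interval -2.08 to 0.77; two-sided exact permutation p = 0.270). It was -1.03 without wild-type 5, -0.41 without wild-type 1 and -0.38 without knockout 4.

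Counted together on the log2 scale, 6 of the 7 had a lower mean in knockout and 1 a higher one, where 67.4% of all tested genes had a lower mean. Their median log2 difference was -0.34 against -0.31 over all genes tested. This count depended on scaling. After median centring, which moved the median of all genes to 0.07, 3 of the 7 were lower (Ctcf, Stag2 and Nipbl) against 46.1% of all genes, and Rad21 had the difference farthest from 0 at 0.87. Without the 3 libraries apart the differences were 0.98 for Rad21, 0.39 for Smc3, 0.27 for Stag1, -0.06 for Smc1a, -0.44 for Nipbl, -0.90 for Stag2 and -0.998 for Ctcf, 4 of the 7 being lower. Groups that did not overlap were found for 0 of the 7, against 0.502% of genes. Without the 3 libraries apart they were found for 1, Ctcf, against 5.7% of genes.

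At an adjusted limma p under 0.05 there were 0 of the 7 (adjusted p 0.992 to 0.998), against 0% of all 11744 genes. At an unadjusted limma p under 0.05 there were 0 of the 7, against 3.31% of all genes, 389 in number. The exact permutation test gave 410 genes at an unadjusted p under 0.05 and 0 after adjustment over all genes, with 0 of the 7 in either. The smallest p this design allows in that test is 0.00794. Over 11744 genes such a p cannot pass adjustment unless very many genes share it, so the 0 after adjustment says little. The SE of the 7 differences ran from 0.65 to 0.84, near the median of 0.78 over all genes. All 7 intervals held both no difference and a 2-fold difference in at least 1 direction.

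**Figure D2:**
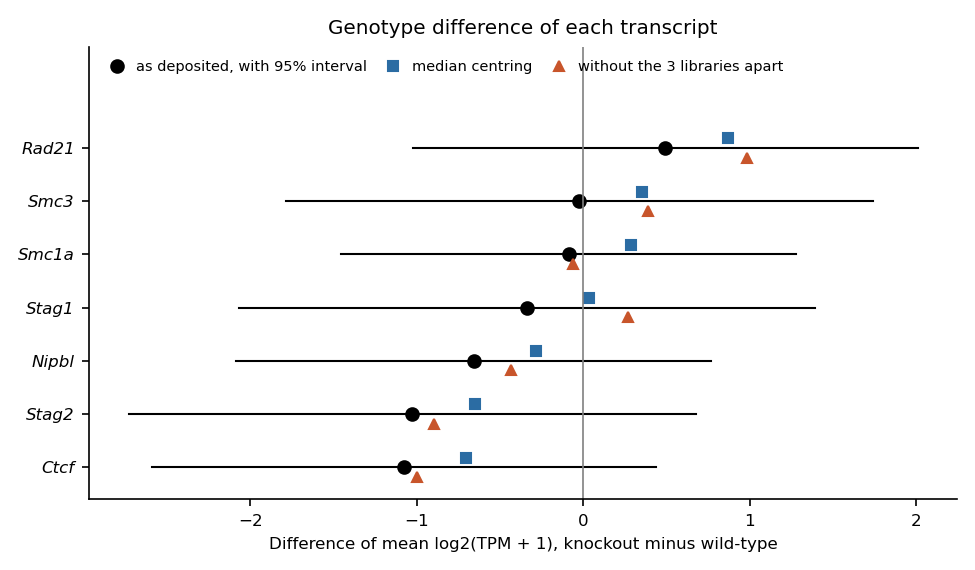
Difference of mean log2(TPM + 1), knockout minus wild-type, for each of the 7 transcripts: black circles with 95% intervals for the values as deposited, blue squares after median centring and orange triangles with those 3 libraries (wild-type 5, knockout 4 and 5) left out. Every interval crosses 0, and centring moves Smc3, Smc1a and Stag1 from below 0 to above it.

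Also compared were 5 ratios of transcripts within a library, between ring subunits, between the STAG paralogs, and of Nipbl and Ctcf to the ring subunit Rad21. A scaling shared by all genes of a library nearly cancels in such a ratio. The log2 ratio of Ctcf to Rad21 was 0.07, 0.01, -0.24, 2.43 and -0.48 over wild-type replicates and -2.10, -0.57, -1.58, -0.39 and -1.43 over knockout replicates. It was below 0 in all knockout libraries, and the groups overlapped only through wild-type 5 and knockout 4. The means were 0.36 ± 1.18 and -1.21 ± 0.72 (SD, n = 5 each), a difference of -1.57. The two-sided exact permutation p was 0.0159, and 0.0794 when adjusted (Benjamini-Hochberg) for the 5 ratios, which does not pass 0.05. Leaving out wild-type 4, where this ratio was highest, the difference was -1.05 and the exact permutation adjusted p 0.218. Without the 3 libraries apart it was -1.98 (0.143). The genotypes did not overlap in this ratio there. So few libraries allow few divisions, so that p could not be small and is not comparable with the one over 10 libraries.

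Nipbl to Rad21 had the same direction. Its means were 0.58 ± 0.98 in wild-type and -0.57 ± 0.53 in knockout (SD, n = 5 each), a difference of -1.15 with an exact permutation p of 0.0556, adjusted 0.139. Without the 3 libraries apart the difference was -1.42, and without wild-type 4 it was -0.76 (exact permutation adjusted p = 0.218). Both ratios share Rad21 and so are not independent. Stag2 to Stag1 differed by -0.69 (exact permutation p = 0.278, adjusted 0.347) and Rad21 to Smc3 by 0.52 (exact permutation p = 0.270, adjusted 0.347). The former was -1.16 without the 3 libraries apart, -0.42 without wild-type 2, -0.42 without knockout 2 and -0.44 without wild-type 4. The latter was 0.18 without wild-type 1.

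Smc1a to Smc3 differed by -0.07 (exact permutation p = 0.929, adjusted 0.929). This ratio of the obligate ring partners was not constant: it ran from -0.39 in knockout 3 to 2.53 in wild-type 4 and 2.97 in knockout 5, where Smc1a stood at 51.1 TPM beside 5.67 TPM of Smc3. Rad21 to Smc3 held a narrower range, from -1.28 to 1.16.

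**Figure D3:**
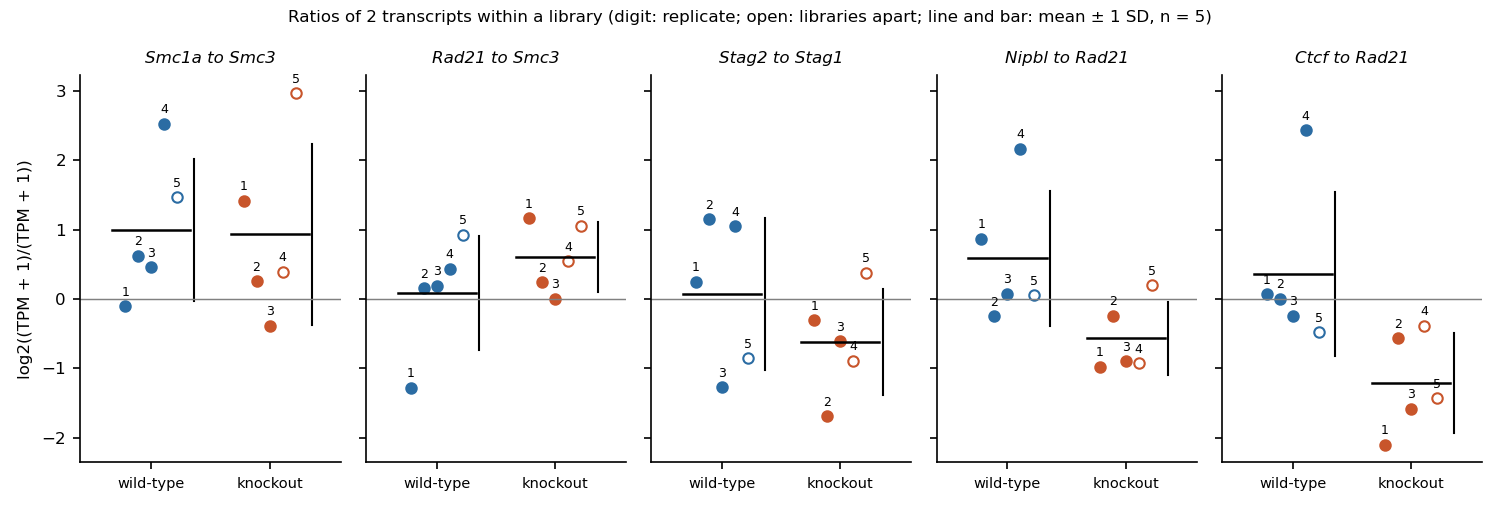
Log2 ratio of 2 transcripts within each library, with replicate numbers, open circles for the 3 libraries apart, and lines and bars for mean ± 1 SD, n = 5 per genotype. In the Ctcf to Rad21 panel all knockout points are below 0, and wild-type 4 stands far above the other wild-type libraries at 2.43.

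The 7 transcripts were low as a group in particular libraries of both genotypes. Their mean log2(TPM + 1) was 3.20 to 3.58 in the 3 libraries that lay apart and 4.30 to 5.74 in the other 7, with no overlap. This was not particular to the 7 transcripts. The median of all tested genes was 2.94 to 3.59 in the 3 libraries and 3.78 to 4.59 in the other 7, also with no overlap. Stag1, Stag2 and Nipbl had their 3 lowest values in exactly those libraries, and Ctcf, Rad21, Smc1a and Smc3 each had 2 of their 3 lowest there. Wild-type 4, which was low for Rad21, Smc3 and Stag1 but not for Ctcf or Nipbl, was the library that lay apart on the second component.

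The longest annotated coding transcript had 3782 bases for Ctcf, 3956 for Rad21, 4691 for Smc1a, 4851 for Smc3, 6171 for Stag2, 6186 for Stag1 and 9423 for Nipbl. Tested genes with a transcript of at least 5000 bases, coding or not, numbered 2655 and included Stag1, Stag2 and Nipbl. Over these genes the median log2(TPM + 1) was 2.48 to 3.21 in the 3 libraries and 3.84 to 5.03 in the other 7. Set against that median, the mean of the 7 was 0.32 to 0.72 higher in the 3 libraries and 0.13 to 0.93 higher in the others, so these ranges overlapped. Genes with only transcripts under 1000 bases took 21.02% to 24.6% of TPM in the 3 libraries and 11.2% to 18.6% elsewhere. The median genotype difference was -0.48 for long and 0.01 for short transcripts. The part of transcript length and RNA quality in the differences above was not tested.

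**Figure D4:**
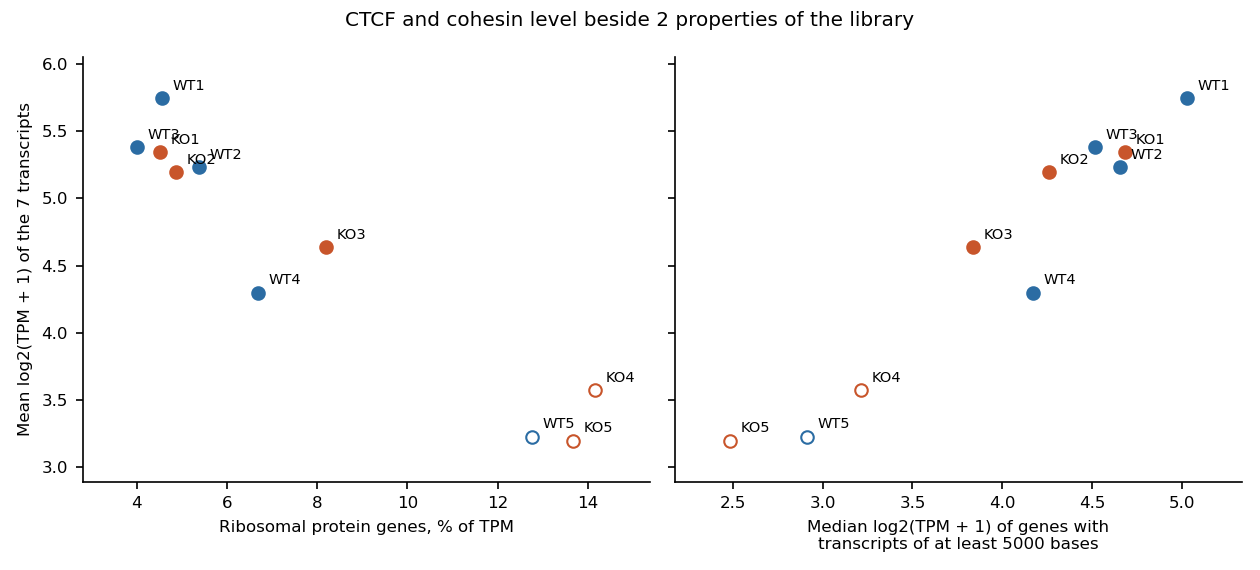
Mean log2(TPM + 1) of the 7 transcripts in each library against the share of TPM in ribosomal protein genes (left) and against the median log2(TPM + 1) of genes with long transcripts (right), where WT is wild-type, KO is knockout, the digit is the replicate and open circles are the 3 libraries apart. Libraries of both genotypes lie along the same course, from 3.20 in knockout 5 to 5.74 in wild-type 1.

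Among the 7 libraries that did not lie apart, the 21 pairs of the 7 transcripts had a median Pearson r of 0.19. The median r of each transcript with other genes was between 0.099 (Rad21) and 0.215 (Stag2), with no value taken for Nipbl. Those other genes had a mean of at least 5 TPM, without predicted genes and small RNAs. The closest pairs were Rad21 with Smc3 (r = 0.78) and Smc1a with Nipbl (r = 0.75), and the most opposed was Ctcf with Rad21 (r = -0.58). Over all 10 libraries, which fall into separate clusters, the median was 0.69 among the 21 pairs. With other genes it was then between 0.276 (Smc1a) and 0.413 (Ctcf), again without Nipbl. These are descriptions over libraries that share library effects, with no test.

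The genes whose pattern over all 10 libraries was most like that of each of the 7 were sought among 9328 genes with a mean of at least 5 TPM. For Ctcf these were the chromatin remodelling subunit gene Arid1b (Pearson r = 0.98 over 10 libraries, 0.88 over the 7), Slc24a3 (0.97 and 0.91) and the zinc finger gene Zfp719 (0.97 and 0.91). For Nipbl they were the neuronal kinase gene Mapk10 (0.98 and 0.98), Naa15 (0.98 and 0.91) and Zfp280c (0.98 and 0.92). For Smc1a they were the splicing factor gene Srsf3 (0.97 and 0.94), Eif4g3 (0.96 and 0.95) and Ttc3 (0.96 and 0.95). For Smc3 they were the atypical protein kinase C gene Prkci (0.97 and 0.94), Ube3c (0.97 and 0.97) and Api5 (0.97 and 0.93). For Rad21 they were the mitochondrial gene Apoo (0.97 and 0.98), the histone H2A deubiquitinase gene Mysm1 (0.96 and 0.98) and Fam126a (0.96 and 0.93). For Stag1 they were the kinase gene Cdc42bpa (0.98 and 0.93), the olfactory receptor pseudogene Olfr856-ps1 (0.98 and 0.96) and Magi3 (0.97 and 0.95). For Stag2 they were Fam19a1 (0.98 and 0.95), the RNA surveillance kinase gene Smg1 (0.97 and 0.97) and Rapgef4 (0.97 and 0.93). None of the 7 was among the 3 closest genes of another. These values are the highest of 9328 and were not tested.

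Among factors that load, release and modify cohesin outside of cell division, Hdac8 reached 1 TPM in 5 of the 10 libraries. That is the fewest the filter allows, and the others reached it in all 10. Of 6 genes described, all were tested, 5 had lower and 1 a higher mean in knockout, and 0 had an unadjusted limma p under 0.05. Their median log2 difference was -0.60. Over all tested genes, 67.4% had a lower mean, 3.31% had such a p and the median was -0.31. The same shares stand beside the counts of the lists below. Pds5b, which encodes a regulator of release by WAPL, had the highest mean and was between 3.46 and 64.9 TPM among wild-type libraries and between 2.23 and 186 TPM among knockout ones, the highest being knockout 1. Hdac8, which encodes the SMC3 deacetylase, was the lowest, at 1.77, 13.3, 2.58, 0.0977 and 2.90 TPM over the wild-type replicates and 0.937, 0.291, 0.343, 1.55 and 0.0521 TPM over the knockout replicates. Wild-type 4 lay within the knockout range for Hdac8, and the log2 difference was -1.22 (SE 0.67; exact permutation p = 0.0794; limma adjusted p = 0.992). Hdac8 passed the filter mainly through wild-type libraries, the group where it was higher.

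Genes needed to hold and release sister chromatids in division mostly did not pass the filter. Of 9 listed genes 1 did, the securin gene Pttg1, between 0.506 and 87.6 TPM among wild-type libraries and between 2.15 and 101 TPM among knockout ones (log2 difference 0.41, SE 1.12). The acetyltransferase gene Esco2 never exceeded 0.285 TPM and was listed at 0 in 7 libraries, and the sororin gene Cdca5 never exceeded 0.185 TPM and was listed at 0 in 8. Markers of progenitors and cycling cells, 10 genes, summed to between 14.1 and 127 TPM among wild-type and between 18.1 and 74.5 TPM among knockout libraries.

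Of 5 germline counterparts of the 7, 3 were tested, with 1 lower and 2 higher in knockout and a median of 0.62. Smc1b, the meiotic counterpart of Smc1a, never exceeded 0.300 TPM. The meiotic kleisin gene Rec8 was at 0.171 to 17.8 TPM among wild-type libraries and, over the knockout replicates, at 17.3, 11.2, 1.87, 130 and 8.59 TPM, the highest being knockout 4 (log2 difference 1.55, SE 0.97; exact permutation p = 0.230). Stag3 was between 0.426 and 9.23 TPM among wild-type and between 1.38 and 14.4 TPM among knockout libraries.

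The other SMC complexes showed no common direction. In condensin, 6 of 8 genes were tested, 3 lower and 3 higher, with a median of -0.11, and Ncaph2 was the highest between 7.48 and 40.5 TPM among wild-type libraries and between 0.953 and 17.5 TPM among knockout ones (-0.91, SE 0.80). Ncapg never exceeded 0.449 TPM, and Ncapg2 was between 0.432 and 1.37 TPM among wild-type and between 0.0215 and 25.5 TPM among knockout libraries. In the SMC5/6 complex, 6 of 7 were tested, 3 lower and 3 higher, with a median of -0.13. Its 2 ATPase genes went opposite ways: Smc5 was between 3.08 and 41.8 TPM among wild-type libraries and between 0.549 and 21.5 TPM among knockout ones (-0.98, SE 0.87). Smc6 was at 50.4, 19.5, 17.3, 15.5 and 3.84 TPM over the wild-type replicates and at 355, 213, 47.3, 3.89 and 1.95 TPM over the knockout replicates (1.02, SE 1.12), so knockout held both the highest and the lowest library. Both 95% intervals spanned a lower and a higher level in knockout, -2.80 to 0.84 for Smc5 and -1.32 to 3.37 for Smc6. The exact permutation p was 0.294 for Smc5 and 0.500 for Smc6. Nsmce1 was between 2.22 and 46.6 TPM among wild-type and between 1.91 and 14.7 TPM among knockout libraries, and Eid3, the gene of the lowest mean, between 0 and 8.18 and between 0.0920 and 10.1 TPM.

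Of 16 other loop and architecture genes, all were tested, and 11 were lower and 5 higher in knockout. Over all tested genes 67.4% were lower. The mutated gene Satb1 is itself in this list and was 1 of the 11 lower genes (-1.25, SE 0.71). It also entered the median of the list, which was -0.53. At an unadjusted limma p under 0.05 there were 0 of the 16, against 3.31% of all tested genes. Cux1, a homeodomain factor gene, was the most abundant, between 133 and 483 TPM among wild-type libraries and between 73.9 and 221 TPM among knockout ones (-0.59, SE 0.55). Maz, which encodes a zinc finger protein that binds beside CTCF, was between 13.2 and 92.2 TPM among wild-type and between 33.2 and 180 TPM among knockout libraries (0.81, SE 0.69). The lamin B receptor gene Lbr was the lowest, between 0.337 and 10.2 TPM among wild-type and between 0.445 and 8.81 TPM among knockout libraries (-0.69, SE 0.74). Over the 6 lists beside the 7 genes, 0 genes were called by limma, against 0% of all tested genes. Groups that did not overlap were found for 0 genes of these lists, against 0.502% of all tested genes.

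**Figure D5:**
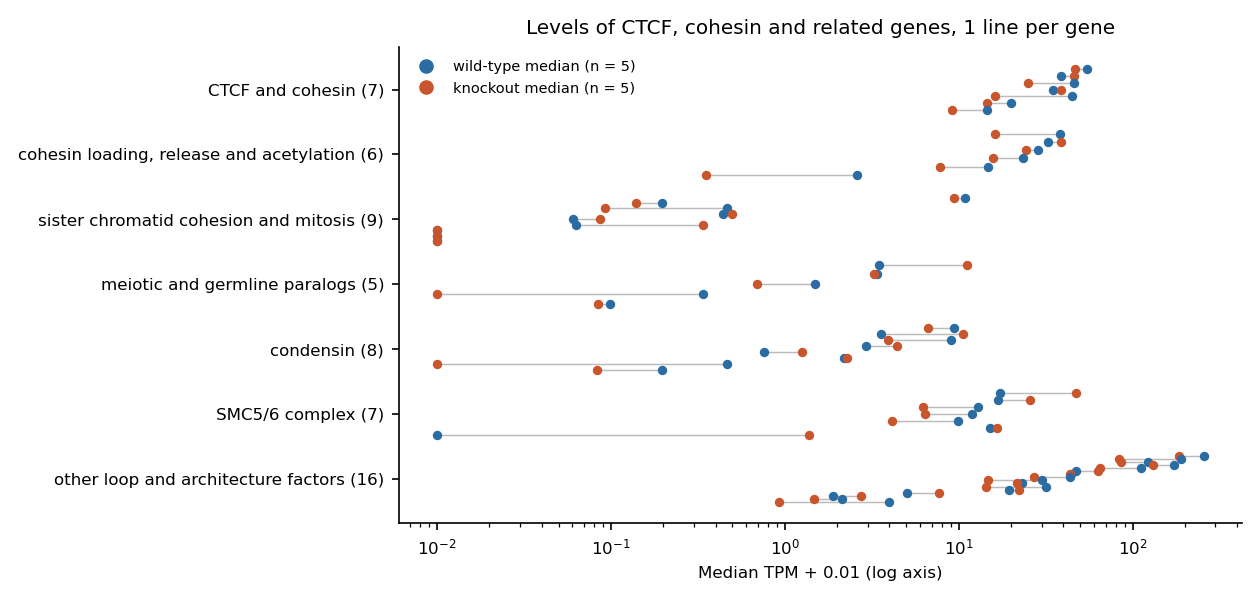
Median TPM + 0.01 over 5 libraries (log axis) for each gene of the 7 lists, with wild-type in blue and knockout in orange joined by a line, and the number of genes in parentheses. All 7 genes of the CTCF and cohesin list are above 1 TPM, while most mitotic cohesion genes are below 1 TPM in both genotypes.

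Markers of other retinal cells varied by library within both genotypes. The summed level of 9 microglia markers ran from 5.60 to 2247 TPM among wild-type and from 72.4 to 3098 TPM among knockout libraries, that of 10 rod markers 4.45 to 486 and 1.21 to 493 TPM, and that of 7 Muller glia markers 306 to 597 and 166 to 5744 TPM. Amacrine markers, 9 genes, summed to 86.6 to 358 and 88.9 to 262 TPM, 7 bipolar markers to 35.97 to 140 and 11.98 to 92.9 TPM, and 6 endothelial markers to 0.650 to 16.5 and 0.0793 to 5.29 TPM. Each list had values in at least 1 library for every gene. In knockout 5, where Ctcf, Smc3 and Stag1 were at their lowest, Muller glia markers summed to 5744 TPM and microglia markers to 3098 TPM, their highest sums. Only 3 of the 7 Muller glia markers were at 1 TPM or more in knockout 5, so that sum rests on few genes. Of the 9 microglia markers, 8 were. In wild-type 5, where Stag2 was at its lowest, the sums were 306 TPM for Muller glia and 770 TPM for microglia markers. There 4 Muller glia and 9 microglia markers were at 1 TPM or more. The part of such cells in the levels of the 7 was not tested.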

How the data were processed

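The deposited table holds, for 10 libraries, log10(TPM + 1) values made by the authors, 1 column per library with no pooling. The log base and offset were read from the values, since 10 to the power of the value, minus 1, sums to 1000000 in every column. Per the submitters' processing notes, TopHat2 2.0.10, Cufflinks and mm10 were used. How reads were counted, by which annotation, and whether by strand, is not given in the sources used here. Per the labels' protocols, the cDNA was amplified.

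Values were returned to TPM, 26 lines named by a number were left out and symbols on several lines were summed, which left 23258. The 11744 genes reaching 1 TPM in 5 or more libraries were fitted on log2(TPM + 1) with limma 3.58.1 (R 4.3.3), genotype only, trended variances and p adjusted by Benjamini-Hochberg over all genes, at a threshold of 0.05. Exact permutation tests used all 252 divisions of the libraries. The fit was tested on simulated data. Loci and transcript lengths come from GENCODE M21 (mm10), with a length for 90.5% of tested genes. The length classes and the cell type lists served as description.

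The 7 genes and all lists were chosen with earlier results of these data known. Named genes were the 7, and of each wider list the 2 smallest p, the highest, the lowest and those never at 1 TPM. Beside each of the 7 the 3 genes of highest Pearson r were named, without predicted genes and small RNAs. One gene of the wider lists is not reported here. Pseudocounts, filters, scalings, the replicate number as a block, weights per library, the trend, and single libraries or the 3 apart left out, were the alternatives.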

Additional observations from a re-analysis of the deposited data

Results flagged for a closer look

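Of 24 groups of 5 values (7 transcripts and 5 ratios, in each genotype), 2 held a library far from the others. For values that follow a normal distribution, chance alone singles out about 1 group in 20. TPM values need not follow one. Stag1 in knockout 2, at 49.4 TPM, was separated from the next knockout library by 0.727 of the group's range in TPM. The gap was taken on TPM and was not tested on the log2 scale used for the differences. The log2 ratio of Ctcf to Rad21 in wild-type 4, at 2.43, was separated from the next wild-type library by 0.812 of the range. The critical share for 5 samples is 0.71. Without wild-type 4 the genotype difference of that ratio was -1.05 in place of -1.57.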

How the results depend on the processing

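For the 7 transcripts, no alternative brought a limma adjusted p under 0.05. Direction held under all alternatives for Ctcf, Stag2, Nipbl and Rad21, with ranges over single libraries left out of -1.53 to -0.66, -1.57 to -0.65, -1.03 to -0.38 and 0.12 to 0.86. It turned for Smc1a, Smc3 and Stag1 after median centring (0.29, 0.35 and 0.038) and quantile normalization (0.15, 0.29 and 0.057), and for Smc3 and Stag1 without the 3 libraries apart (0.39 and 0.27). Leaving out 1 library gave -0.45 to 0.22 for Smc1a, -0.47 to 0.49 for Smc3, -0.85 to 0.14 for Stag1 and -0.57 to 0.32 for the Smc1a to Smc3 ratio. The cause was not tested. With median centring and with quantile normalization 3 of the 7 were lower in knockout in each case. The count without overlap was 1 without the 3 libraries apart (5.7% of all genes) and 0 to 1 with single libraries left out. It was 1 without wild-type 5, where 2.57% of all genes had every knockout library lower. The share in either direction was not counted for that setting.

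Over all genes, limma called 1 gene with a filter of 5 TPM, 3 with library weights, 1 without the trend and 0 to 1 with single libraries left out. Genes at an unadjusted p under 0.05 numbered 834 with library weights and 267 to 830 with single libraries left out, the highest being without wild-type 5. The split of these genes was 87 higher and 302 lower as deposited, 234 and 149 after median centring and 189 and 212 after quantile normalization. With the replicate number as a block (replicate block) they numbered 830, and 0 were called. Same-numbered libraries deviated together with r of 0.22, 0.07, 0.13, -0.03 and 0.36, and 2 of 5 wild-type libraries correlated best with their own number, so the numbers are not taken to pair the libraries. Depth is unknown, and 5 libraries of amplified RNA per genotype limit precision.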
